A study of Mus musculus with 6 samples.

Results

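The genes for 8 mouse enzymes that act on N-acetylglucosamine (GlcNAc) or on the glucosamine sugars next to it were followed in blood stem and progenitor cells with and without Oga. They are Hexa, Hexdc, Naglu, Nagpa, Engase, Hgsnat, Gnpda1 and Gnpda2. Each was found by its symbol in the deposited table of read counts, and the 8 loci are 8 of 53445 in the table. No symbol was repeated, and all 8 loci passed the filter on low counts that left 22032 loci to test.

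Oga is the nuclear and cytosolic enzyme that takes single GlcNAc residues off the serines and threonines of proteins, and Ogt is the enzyme that puts them on. Outside this cycle GlcNAc is handled elsewhere in the cell. Lysosomal glycosidases strip it from the ends of glycolipids, glycoproteins and heparan sulfate, a Golgi enzyme removes it from the mannose 6-phosphate tag of lysosomal enzymes, and a cytosolic endoglycosidase cuts within the GlcNAc core of free N-glycans. In the label of "GlcNAc-removing enzymes" 3 of the 8 genes are named loosely. Hgsnat acetylates the glucosamine of heparan sulfate inside the lysosome, so that Naglu can then remove it as GlcNAc. Gnpda1 and Gnpda2 deaminate glucosamine 6-phosphate in the cytosol and return it to glycolysis.

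The cells were LSK cells (lineage negative, Sca-1 positive, c-Kit positive), the bone marrow fraction that holds hematopoietic stem cells and multipotent progenitors, sorted from female C57BL/6 mice of about 12 weeks. In the 3 OgaVav-Cre mice a floxed Oga allele (Oga fl/fl) was crossed to the Vav-iCre transgene, which is active in the hematopoietic lineage, and the 3 control mice were wildtype. The wildtype label does not say whether a control mouse carried floxed alleles or Cre, so deletion of Oga and presence of Cre cannot be told apart. Each library is 1 mouse, and poly(A) RNA was sequenced.

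Library totals, summed over all loci, were 25190298, 26078093 and 27064389 reads in OgaVav-Cre against 20600489, 19318056 and 21684561 in wildtype. In these libraries 3 reads corresponded to 0.109 to 0.156 CPM (read count scaled to library size). Oga, listed as Mgea5 at chr19:45824749-45858269 (mm9), had 104, 109 and 110 reads in OgaVav-Cre against 3164, 2970 and 2736 in wildtype. It fell by 5.01 ± 0.17 (SE) on the log2 scale (edgeR adjusted p = 5.88e-05). The LSK markers Kit and Cd34 were at means of 409 and 473 CPM in OgaVav-Cre and of 490 and 431 CPM in wildtype. Ly6a, which encodes the sort marker Sca-1, was at 218, 114 and 100 CPM in OgaVav-Cre against 48.5, 122 and 42.3 in wildtype. Its genotypes overlapped through wildtype replicate 2, and the log2 fold change of 1.02 did not pass the test (edgeR adjusted p = 0.483). The 10 LSK markers together summed to 1190 to 2500 CPM against 1580 to 2740 CPM. Reads of genes used as markers of other cells were also present and varied within each genotype. Whether these came from other cells or from LSK cells was not tested. The immunoglobulin loci Ighm, Igkc and Igj took 9.88, 4.14 and 1.17% of OgaVav-Cre reads, against 2.05, 5.48 and 1.36% of wildtype reads (replicates 1 to 3 in each case). The 7 plasma cell markers summed to 1670 to 12200 CPM in OgaVav-Cre and 1760 to 8020 CPM in wildtype. The 10 monocyte and macrophage markers, of a cell type rich in lysosomes, summed to 411 to 1200 CPM and 430 to 879 CPM.

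None of the 8 genes was called changed. The cutoffs were those of the study's methods, an adjusted p below 0.05 with a log2 fold change above 1 or below -1. Over all loci tested these cutoffs called 0.0272% lower and 0.00454% higher in OgaVav-Cre. DESeq2's Wald test and limma-voom also called 0 of the 8, and edgeR called 0 of the 8 with the fold change cutoff left out. Gnpda2 alone had an unadjusted p below 0.05, on the lower side, where 6.27% of all loci lay, and no member did on the higher side, where 4.38% lay.

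**Figure D1:**
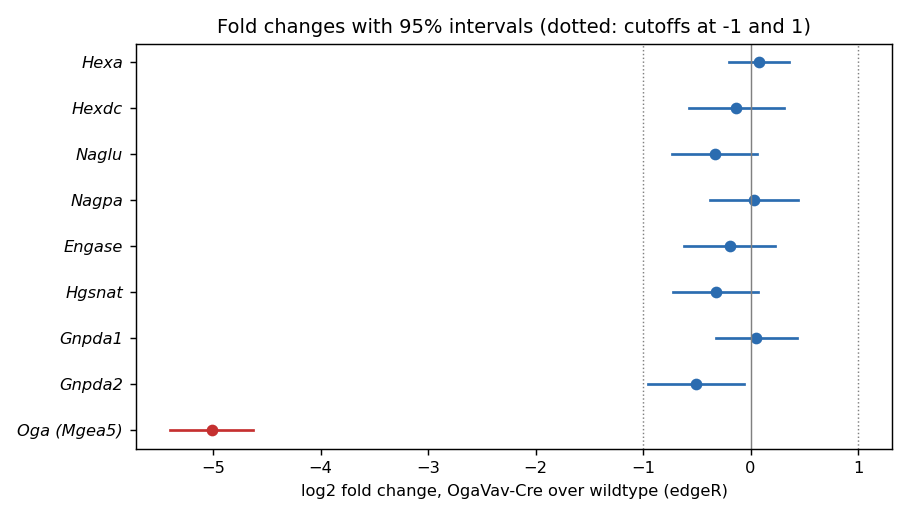
Log2 fold change of OgaVav-Cre over wildtype for the 8 enzyme genes and Oga (Mgea5), from the edgeR fit. Points are estimates, horizontal lines are 95% intervals and dotted lines mark the cutoffs at -1 and 1. All 8 intervals lie between the dotted lines, while Oga lies at -5.01.

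Intervals of the edgeR fit on all libraries give a range for the change in reads of each locus. The 95% interval of the log2 fold change lay within -1 to 1 for 8 of the 8 genes, against 58.3% of all loci tested. Across 17 alternatives, that of Gnpda2 stayed within these limits in 13 and reached down to -1.14. Reads that may belong to other loci, as described below for Hexdc and Gnpda2, were not separated. The members' intervals had a median width of 0.81 on the log2 scale, and those of all loci 1.13. The fold change was below 0 for 5 of the 8 genes with a median of -0.16, where 49.5% of all loci were below 0 with a median of 0.0041. The summed level of the 8 genes was 186, 178 and 194 CPM in OgaVav-Cre against 193, 213 and 208 in wildtype, and the genotypes overlapped. In bulk RNA of sorted cells, fewer cells of a type and less RNA per cell cannot be told apart.

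**Figure D2:**
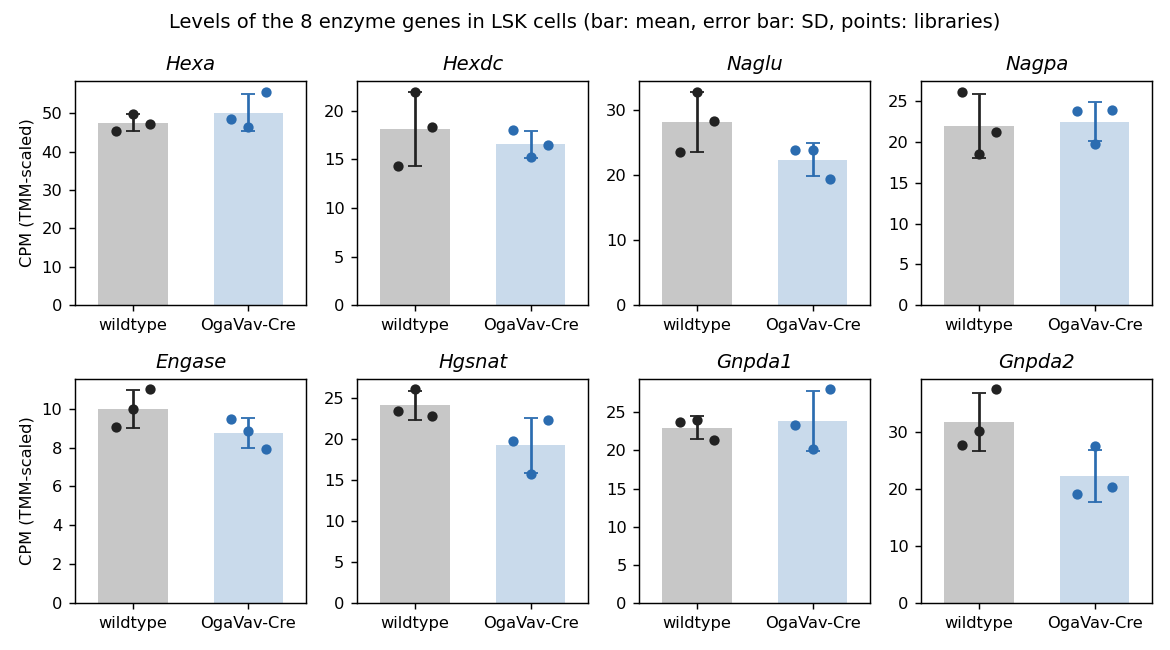
CPM scaled by TMM factors for each enzyme gene in 3 wildtype (grey) and 3 OgaVav-Cre (blue) libraries. Bars are means, error bars are SD and points are libraries, on axes that start at 0. The points of the genotypes mix in 6 panels and separate for Hgsnat and Gnpda2, where all blue points lie below the black ones.

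Hexa encodes the alpha subunit of lysosomal beta-hexosaminidase, the enzyme missing in Tay-Sachs disease, which removes terminal N-acetylhexosamines from GM2 ganglioside and other glycans. It lies at chr9:59387347-59412914 on the plus strand of mm9. Its levels were 48.4, 46.5 and 55.6 CPM in OgaVav-Cre against 45.4, 49.8 and 47.3 in wildtype. Replicate 3 of OgaVav-Cre was highest and the rest overlapped. With means of 50.2 ± 4.81 and 47.5 ± 2.23 CPM (SD, n = 3 each), the log2 fold change of 0.08 had an interval of -0.20 to 0.36 (edgeR adjusted p = 0.828). This was the narrowest interval of the 8, so that an increase above 1.28-fold or a decrease below 0.872-fold lay outside it. The span of Hexa overlaps LOC100504397 and Tmem202 on the opposite strand, with log2 fold changes of 0.24 and 0.29 (adjusted p = 0.659 and 0.653). None of its exon bases are shared in the GENCODE vM1 gene models, but exons of the loci as counted were not compared. The part of LOC100504397 and Tmem202 in the Hexa values was not tested.

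Hexa acts on GM2 ganglioside with the help of Gm2a, the GM2 activator protein, which lifts the lipid out of the membrane. Gm2a was at 194, 204 and 229 CPM in OgaVav-Cre against 187, 207 and 178 in wildtype. The genotypes overlapped, and the fold change of 1.10 had an interval of 0.892 to 1.34 (edgeR adjusted p = 0.72).

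Naglu and Hgsnat act in turn on heparan sulfate in the lysosome, and loss of either causes a form of Sanfilippo syndrome. Hgsnat (chr8:27052987-27087216, minus strand) acetylates the exposed glucosamine. Its levels were 19.8, 15.7 and 22.3 CPM in OgaVav-Cre against 23.4, 26.1 and 22.9 in wildtype. All OgaVav-Cre libraries lay below all wildtype ones, although the nearest pair differed only as 22.3 from 22.9 CPM. The fold change of 0.798 had an interval of 0.606 to 1.05 (edgeR adjusted p = 0.526). At its 3′ end the locus runs to 27052987, past the gene model's end at 27054931. There it overlaps AK039645, a single-exon locus on the same strand, at 2.17 ± 1.04 CPM in OgaVav-Cre and 3.39 ± 0.215 CPM in wildtype. AK039645 was also lower without overlap, with a log2 fold change of -0.65 (edgeR adjusted p = 0.582). Its part in the Hgsnat values was not tested.

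Naglu (chr11:100931191-100938986, plus strand) encodes alpha-N-acetylglucosaminidase, which takes off the GlcNAc that Hgsnat makes. It had 23.9, 23.8 and 19.4 CPM in OgaVav-Cre against 23.6, 32.8 and 28.3 in wildtype. Wildtype replicates 2 and 3 were highest, and wildtype replicate 1 lay among the OgaVav-Cre libraries. The fold change of 0.793 had an interval of 0.601 to 1.05 (edgeR adjusted p = 0.523).

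Nagpa (chr16:5195373-5204105, minus strand) is the Golgi uncovering enzyme, which removes the GlcNAc that caps mannose 6-phosphate and so exposes the tag that carries hydrolases to lysosomes. Its levels were 23.8, 19.8 and 24 CPM in OgaVav-Cre against 26.2, 18.5 and 21.2 in wildtype. The highest and the lowest library were both wildtype. The means of 22.5 ± 2.37 and 22 ± 3.94 CPM (SD, n = 3 each) gave a log2 fold change of 0.04, with an interval of -0.37 to 0.45 (edgeR adjusted p = 0.955). The GlcNAc-1-phosphotransferase subunits Gnptab and Gnptg, which add the cap, were at 126 ± 10.2 and 17.0 ± 0.490 CPM in OgaVav-Cre and at 120 ± 12.5 and 17.8 ± 2.40 CPM in wildtype. Their adjusted p-values were 0.869 and 0.897. Alg1, which overlaps the 5′ end of Nagpa on the opposite strand, had a log2 fold change of 0.15 (adjusted p = 0.744).

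Lysosomal genes often carry the letters CACGTG, the E-box core bound by Tfeb, Tfe3 and Mitf, near their start. The motif reads the same on both strands. RefSeq promoter windows on GRCm38.p6, from 250 bases before to 50 bases after each start, were at hand for 6 of the 8 genes in 7 windows, with no entry for Hgsnat and Gnpda1. The motif was in 2 of the 7 windows, those of Naglu and Nagpa, and in 7.15% of all 32851 windows. These 30-base stretches, with the motif in capitals, are at chr11:101070009-101070038 on the plus strand for Naglu and at chr16:5204005-5204034 and chr16:5203990-5204019 on the minus strand for Nagpa, whose stretches overlap.
Naglu: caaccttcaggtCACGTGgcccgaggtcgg
Nagpa, first: ctggcctggaatCACGTGgggcgagcccac
Nagpa, second: gtggggcgagccCACGTGaccggagcacca
A match of letters is a description, and binding was not measured here.

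Engase (chr11:118338143-118350523, plus strand) is a cytosolic enzyme that cuts between the GlcNAc residues at the base of N-glycans freed from misfolded glycoproteins. Its levels were 9.45, 8.86 and 7.95 CPM in OgaVav-Cre against 9.04, 10 and 11 in wildtype. The genotypes overlapped only through wildtype replicate 1, and the fold change of 0.874 had an interval of 0.652 to 1.17 (edgeR adjusted p = 0.705). In the gene models 8.31% of its exon bases are shared with Gm11748. The table locus on the opposite strand there, AK049482, held at most 17 reads and was not tested.

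Hexdc (chr11:121065747-121093417, plus strand) encodes hexosaminidase D, found in the cytosol and nucleus, where Oga also acts. It had 18, 15.2 and 16.5 CPM in OgaVav-Cre against 14.3, 21.9 and 18.3 in wildtype. Wildtype held both the lowest and the highest library, and the fold change of 0.912 had an interval of 0.672 to 1.24 (edgeR adjusted p = 0.817). Reads of Hexdc are uncertain in assignment. Of its 4139 exonic 50-base words, 34.1% occur elsewhere in the genome, and 6.16% of its exon bases are shared with 1110031I02Rik and BC017643. The table locus ends at 121093417, past the gene model's end at 121083969, and so runs across BC017643 (92.9 ± 27.7 CPM in OgaVav-Cre and 105 ± 9.67 CPM in wildtype). AK035335 lies wholly inside the Hexdc locus on the same strand, at 12.1 ± 5.01 CPM in OgaVav-Cre and 17.1 ± 1.78 CPM in wildtype. The log2 fold changes of the loci overlapping Hexdc were -0.18 for BC017643, -0.50 for AK035335 and 0.57 for 1110031I02Rik (adjusted p = 0.768, 0.559 and 0.458). The part of these loci in the Hexdc values was not tested.

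Gnpda1 and Gnpda2 encode the glucosamine 6-phosphate deaminases, which draw sugar out of the hexosamine pathway that feeds UDP-GlcNAc synthesis. Gnpda1 (chr18:38487191-38498657, minus strand) had 23.3, 20.2 and 28.0 CPM in OgaVav-Cre against 23.7, 24 and 21.3 in wildtype. OgaVav-Cre held both extremes, and the log2 fold change of 0.05 had an interval of -0.32 to 0.43 (edgeR adjusted p = 0.922). Of its exonic 50-base words 48.2% occur again at chr5:149965709-149967732, the place of the locus Gm8615. That locus held 50 to 81 reads per library against 462 to 767 for Gnpda1, and how reads matching both were counted is not given in the sources used here.

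Gnpda2 (chr5:69964347-69983576, minus strand) had the largest difference of the 8 genes. It had 431, 696 and 557 reads in OgaVav-Cre against 591, 581 and 884 in wildtype, which scaled to 19.1, 27.5 and 20.3 CPM against 27.7, 30.1 and 37.4 CPM. All OgaVav-Cre libraries lay below all wildtype ones, with 27.5 and 27.7 CPM as the nearest pair. The means of 22.3 ± 4.56 and 31.7 ± 5.05 CPM (SD, n = 3 each) gave a fold change of 0.703 with an interval of 0.515 to 0.960. The edgeR p was 0.0313 before and 0.445 after adjustment, so the difference did not pass the test. Without wildtype replicate 3 the log2 fold change moved from -0.51 to -0.37, and the adjusted p over all alternatives ran from 0.299 to 0.862.

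In the gene models 14.9% of Gnpda2 exon bases are shared with Guf1, a mitochondrial GTPase gene on the opposite strand, and the library kit named in the labels does not mark strand. Guf1 moved the same way. It was at 63.6, 69.0 and 53.3 CPM in OgaVav-Cre against 79.2, 100 and 101 in wildtype, with a log2 fold change of -0.59. The edgeR p was 0.00447 before and 0.391 after adjustment. Its part in the Gnpda2 values was not tested.

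Genotypes did not overlap, with OgaVav-Cre lower, for 2 of the 8 genes (Hgsnat and Gnpda2), where 9.97% of all loci did so. No member lay higher without overlap, where 7.5% of all loci did. In the deposited RPKM, which is scaled by library size alone, 4 of the 8 were lower without overlap (Naglu, Engase, Hgsnat and Gnpda2) against 12.6% of all loci. With DESeq2's size factors Hgsnat alone was.

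**Figure D3:**
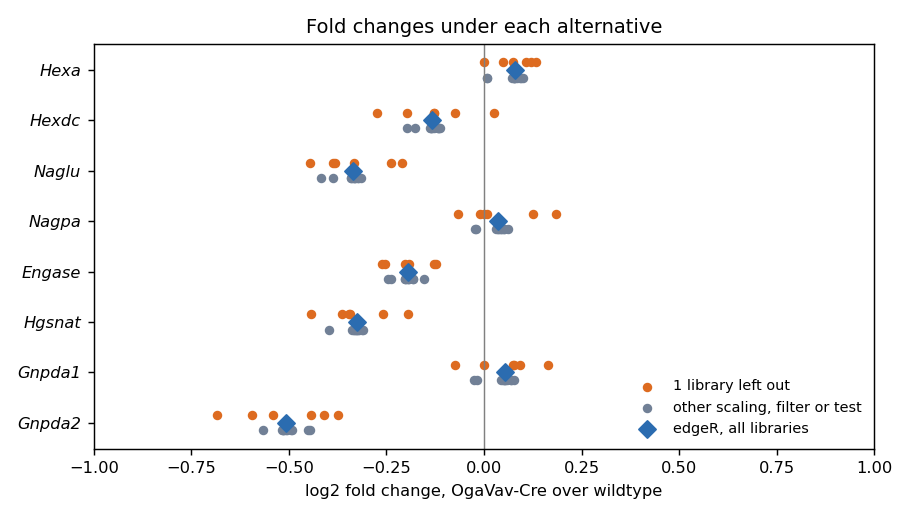
Log2 fold change of each enzyme gene in the edgeR fit on all libraries (blue diamonds), with 1 library left out (orange) and under another scaling, filter or test (grey). Values stay between -0.69 and 0.19, and the points of Hexdc, Nagpa and Gnpda1 lie on both sides of 0.

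Levels were compared between genes per kilobase of locus. In wildtype the RPKM of Hexa was 21.2 ± 0.736. Gnpda1 (4.75 ± 0.214), Hgsnat (4.65 ± 0.217), Naglu (4.27 ± 0.629), Gnpda2 (4.13 ± 0.736), Nagpa (3.10 ± 0.593) and Hexdc (2.76 ± 0.528) followed, each overlapping the next. Engase was lowest at 1.55 ± 0.173 and did not overlap Hexdc. In OgaVav-Cre Hexa was again highest at 21.4 ± 2.82 and Engase lowest at 1.29 ± 0.0611, the same gaps were present, and Gnpda2 stood at 2.78 ± 0.646, below Nagpa at 3.02 ± 0.319. The middle of this order rests on the locus lengths in the table. With GENCODE exon lengths, an alternative chosen after seeing the data, wildtype Naglu came second at 9.44 and Gnpda2 sixth at 4.13, while Hexa and Engase kept the first and last places. Only the length was exchanged there. Reads were not recounted, so those of the locus outside the GENCODE exons still entered the values. Wildtype Oga was at 16.8 ± 2.15 RPKM, below Hexa and above the other 7 genes.

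**Figure D4:**
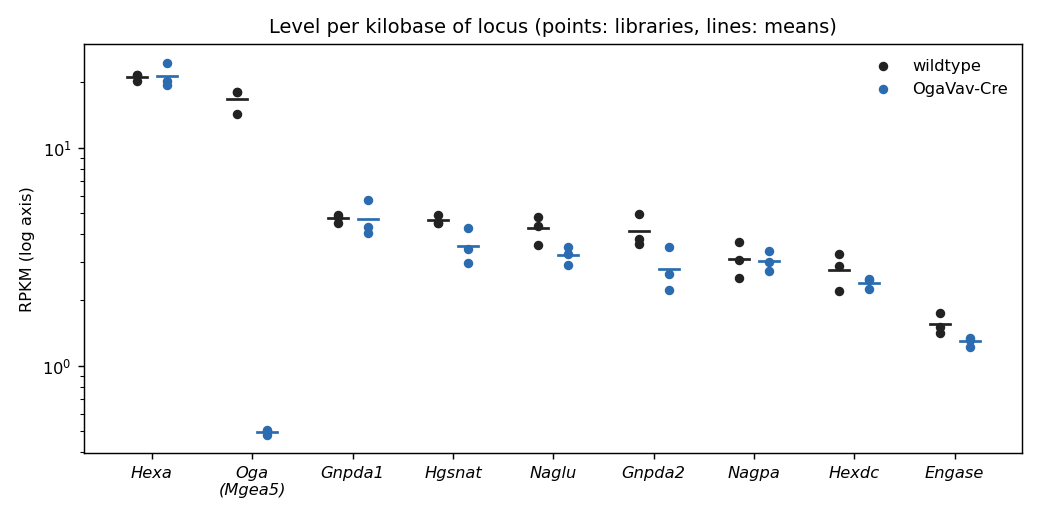
Deposited RPKM on a log axis for the 8 enzyme genes and Oga (Mgea5) in wildtype (black) and OgaVav-Cre (blue) libraries. Points are libraries and short lines are means. Hexa lies near 21.2 RPKM in wildtype, Engase at 1.55, and Oga drops from 16.8 to 0.496.

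Among the libraries the members did not vary together in 1 order. Hexa and Gnpda1 were highest in OgaVav-Cre replicate 3, Engase and Gnpda2 in wildtype replicate 3, Hexdc, Naglu and Hgsnat in wildtype replicate 2 and Nagpa in wildtype replicate 1. The highest library was 1.23 times the lowest for Hexa and 1.96 times for Gnpda2, with the other 6 between them. For 7 of the 8 genes the locus with the nearest profile is given, found by the root mean square difference of centred log2 CPM over the 6 libraries. This was Adar for Hexa (0.0205), Slc50a1 for Hexdc (0.0607), Elavl1 for Nagpa (0.0279), Ascc2 for Engase (0.0322), AK015332 for Hgsnat (0.0406), Rcan1 for Gnpda1 (0.0382) and AK134034 for Gnpda2 (0.0554). With 6 libraries and 22032 loci such near profiles are a description only.

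Related pathways were followed with 5 lists of 79 tested genes, and 0 of the 79 were called changed by edgeR, DESeq2 or limma-voom. Among 28 other lysosomal hydrolases of glycans, 18 had a fold change above 0 (median 0.07), where 49.5% of all loci lay below 0. In edgeR 1 had an unadjusted p below 0.05, on the higher side, where 4.38% of all loci lay. This was Glb1, the lysosomal beta-galactosidase, at 43.1 ± 5.21 and 31.1 ± 7.76 CPM. Its p was 0.0484 before and 0.468 after adjustment. Arsb, arylsulfatase B, was next with a log2 fold change of 0.33 (adjusted p = 0.483). Among 8 genes of mannose 6-phosphate sorting, the pathway that Nagpa serves, 4 lay above 0 (median -0.01). Igf2r, the cation-independent mannose 6-phosphate receptor, had 0.32 and the adaptor Gga3 had -0.11 on the log2 scale.

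Around the deaminases, 17 genes of hexosamine synthesis and salvage had a median log2 fold change of 0.12, with 11 above 0. Of all loci 49.5% lay below 0. Amdhd2, which deacetylates GlcNAc 6-phosphate to the substrate of Gnpda1 and Gnpda2, was at 14.4, 14.4 and 13.3 CPM in OgaVav-Cre against 9.32, 11.3 and 8.97 in wildtype. Amdhd2 is named because it had the smallest p of the 17 genes. Its genotypes did not overlap, where 7.5% of all loci lay higher without overlap. The log2 fold change of 0.51 did not pass the test, with an edgeR p of 0.0177 before and 0.416 after adjustment. The sialic acid synthase Nans had 0.37 (adjusted p = 0.47). Ogt, the O-GlcNAc transferase, was at 487 ± 76.3 CPM in OgaVav-Cre and 791 ± 171 CPM in wildtype, a log2 fold change of -0.70. This did not pass the test either, with a p of 0.00977 before and 0.412 after adjustment.

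Around Engase, 11 of 12 genes of the breakdown of free and misfolded glycans lay above 0, with a median of 0.25. Of all loci 49.5% lay below 0, with a median of 0.0041. No test was run over the list. Ngly1, the peptide N-glycanase that frees the glycans Engase cuts, was at 49.6 ± 0.734 CPM in OgaVav-Cre and 39.8 ± 2.18 CPM in wildtype (log2 fold change 0.32), with an edgeR p of 0.0204 before and 0.423 after adjustment. Man2c1, a cytosolic mannosidase, lay on the other side at -0.32 (adjusted p = 0.508). Several genes of this list are also high in plasma cells, whose markers lay above 0 in 7 of 7 genes with a median of 0.69, and their part in these values was not tested. Of 16 lysosome membrane genes and regulators 14 were tested, and no locus was found under the names Tfeb and Tfe3. The median of the 14 was 0.04. Mitf, a regulator of lysosomal genes, was at 4.79, 4.16 and 4.93 CPM in OgaVav-Cre against 7.40, 7.88 and 8.04 in wildtype, lower without overlap (log2 fold change -0.75), with an edgeR p of 0.0061 before and 0.406 after adjustment. The cystine transporter Ctns followed at -0.39 (adjusted p = 0.508).

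**Figure D5:**
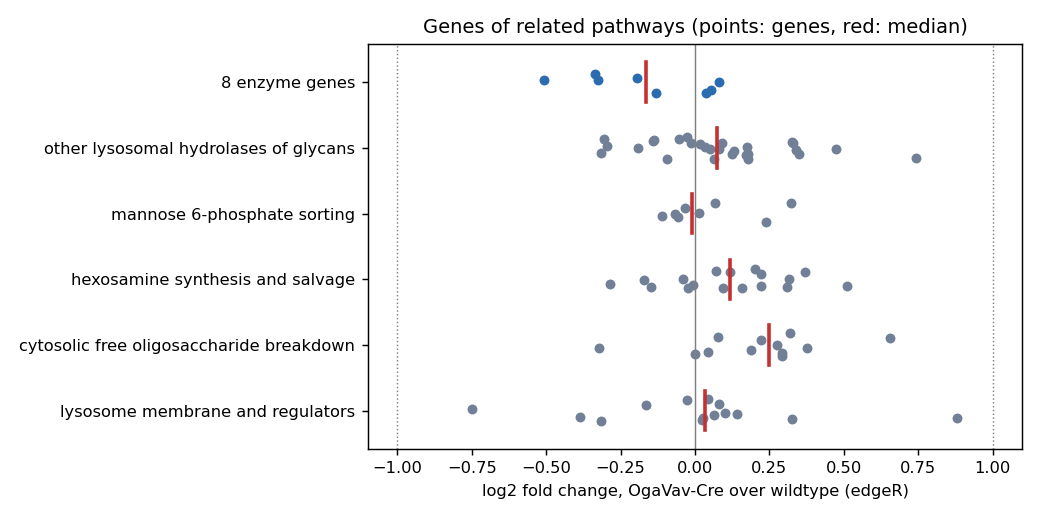
Log2 fold change of OgaVav-Cre over wildtype for each tested gene of the 8 enzymes and of 5 related lists, from the edgeR fit. Points are genes, red bars are medians and dotted lines are the cutoffs. Medians run from -0.16 for the 8 enzymes to 0.25 for free oligosaccharide breakdown, and no point passes a dotted line.

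Of the markers of LSK and other cells, 0 were called changed by edgeR, and Cd4 alone had an unadjusted p below 0.05 (0.043, adjusted p = 0.46). Over all loci edgeR called 0.0272% lower and 0.00454% higher, and 4.38% had an unadjusted p below 0.05 on the higher side. The log2 fold changes of the pair with the smallest p in each list were 1.02 for Ly6a and -0.35 for Gata2 (LSK), 1.14 for Ly6c2 and -0.72 for Csf1r (monocytes and macrophages), 0.95 for Ltf and -0.27 for Mpo (neutrophils), 1.64 for Tnfrsf17 and 1.07 for Txndc5 (plasma cells), -0.45 for Vpreb1 and 0.25 for Cd79a (B cells), and 1.41 for Cd4 and 1.01 for Cd3g (T cells). The erythroid gene Hbb-b1 was at 1.15. With the immunoglobulin share as a covariate Gnpda2 was at -0.45, with a p of 0.0707 before and 0.566 after adjustment, Naglu was at -0.42, with a p of 0.0472 before and 0.545 after adjustment, and 0 of the 8 enzyme genes were called.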

How the data were processed

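Poly(A) RNA-Seq of sorted LSK cells from 3 OgaVav-Cre and 3 wildtype mice was analyzed, with genotype and replicate number taken from the labels. The authors made single-end reads of 50 bp (CASAVA 1.8.2 in the submitters' notes), aligned these to mm9, and used Genomatix for the counts of each locus. Versions of aligner, counting and annotation are not given in the sources used here. The deposited counts are raw reads per locus. The authors made the deposited RPKM from these, the locus length and a library size, which was not the total over loci given above. The authors' columns of fold changes, p-values and normalized expression were not used.

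Counts were fitted in R 4.3.3 with edgeR 4.0.16 (TMM, filterByExpr, glmQLFit and glmQLFTest on genotype), with Benjamini-Hochberg adjustment over 22032 loci. Intervals of 95% come from the SE and the fit's total degrees of freedom. CPM are TMM-scaled. Floors cover counting error only. Alternatives used RLE factors, other filters, legacy = FALSE, DESeq2 1.42.0, limma-voom (limma 3.58.1), RPKM plus 0.1 or 1, a replicate block, the immunoglobulin share, and each library left out. Fits were tested on simulated data. Named were the 8 genes, Oga, partners of Hexa and Nagpa, Ogt, overlapping loci, the nearest profile of each gene and the pair with the smallest p in each list. The gene Gm8615 was added as a sequence copy. Shared exons and repeated 50-base words, taken within exons only, come from GENCODE vM1 on mm9. Some genes under this rule are not reported here. The members and lists were chosen with earlier results of these data known.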

Additional observations from a re-analysis of the deposited data

How the results depend on the processing

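The count of enzyme genes called changed was 0 under all 17 alternatives and without the fold change cutoff, and so was that of the 79 related genes. Over all loci edgeR called 7, other edgeR, voom and RPKM fits 3 to 21, and DESeq2 117. The number of enzyme genes at an unadjusted p below 0.05 was 1, and 0 without OgaVav-Cre replicate 1, wildtype replicate 2 or wildtype replicate 3, and 2 (Gnpda2 and Naglu) without wildtype replicate 1. The gene was Gnpda2 except that it was Naglu with the immunoglobulin covariate (-0.42, edgeR p of 0.0472 before and 0.545 after adjustment) and Hgsnat without OgaVav-Cre replicate 3 (-0.44, 0.0393 and 0.329). Lower without overlap were 2 genes in TMM-scaled CPM, 1 with RLE factors and 4 in RPKM. These 2 alternatives and the GENCODE lengths were chosen after seeing the data. Gnpda2 kept its sign in 17 of 17 alternatives (-0.69 to -0.37), with p below 0.05 in 12, and its interval passed -1 in 4, down to -1.14.

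Signs turned only for log2 fold changes near 0 or with a wide spread. Leaving out 1 library in turn gave -0.28 to 0.0266 for Hexdc, -0.0672 to 0.185 for Nagpa, -0.075 to 0.164 for Gnpda1, -0.14 to 0.0535 for Gnptg, -0.43 to 0.11 for Mpo, -1.37 to 0.15 for Vpreb1, -0.51 to 0.63 for Cd79a, -0.46 to 1.46 for Cd3g, -0.10 to 1.64 for Hbb-b1, -0.15 to 0.11 for Gm8615, -0.00754 to 0.11 for Adar, -0.12 to 0.13 for Elavl1, and -0.02 to 0.20 for Rcan1. RPKM plus 0.1 and plus 1 gave -0.0225 and -0.0195 for Nagpa, -0.0245 and -0.0187 for Gnpda1, and -0.0138 and -0.0126 for Adar. The immunoglobulin covariate gave 0.011 for Elavl1. The cause was not tested.

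The replicate numbers were not taken as pairs, because the labels name no litter, batch or day and the study's methods use no block. Same-numbered libraries correlated at -0.08, 0.26 and 0.32 in their deviations from the genotype means. Differently numbered ones correlated at -0.38 to 0.21, so these values do not settle whether the numbers mark pairs. With the replicate number as a block, Gnpda2 was at -0.52 (edgeR adjusted p = 0.369) and 0 of the 8 genes were called. No symbol was repeated, so the locus with the most reads was the same locus. With 3 mice per genotype, small changes were not detectable. The intervals are per gene and not adjusted for the number of loci, so they do not mark the limit of detection. Gnpda2 was not called although its interval of -0.96 to -0.06 left out 0.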

Other observations

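The balance of the 2 deaminases was looked at after their values were seen, so it is given with no test. The ratio of Gnpda1 to Gnpda2 in RPKM was 1.94, 1.17 and 2.19 in OgaVav-Cre and 1.36, 1.27 and 0.907 in wildtype. OgaVav-Cre replicates 1 and 3 were highest, and OgaVav-Cre replicate 2 lay among the wildtype libraries. On the log2 scale the means were 0.77 ± 0.48 and 0.21 ± 0.31 (SD, n = 3 each). Both genes share sequence or exon bases with another locus, as given above, and the part of this in the ratio was not tested.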
